A study of Mus musculus with 6 samples.

Results

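The genes of the cytosolic ribosome were followed in mouse skin with and without Sox4. Members were chosen by symbol: protein-coding genes named Rpl or Rps with a number, or Rplp0 to Rplp2, without the Rps6k kinases and without pseudogenes. The arrays carried 171 probes for 86 such genes, and 85 of the 86 could be measured, out of 22822 genes and unnamed transcripts tested. They comprise 45 canonical proteins of the large subunit, 30 of the small subunit, 6 paralogs and 4 further genes that carry the symbol only. The rule for members holds no measured value, though it was chosen with earlier results of these data known.

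RNA was measured on 1-colour arrays, 1 per skin sample. The samples were described as untreated telogen skin, the resting phase of the hair cycle, from male mice of mixed C57Bl6/129Sv background. The 3 wild-type (WT) samples came from mice aged 20, 19 and 18 weeks, and the 3 knockout samples (KO), in which Sox4 was deleted conditionally in skin, from mice aged 17, 18 and 16 weeks, in replicate order. The labels name no Cre driver, so which cells lost the gene is not given in these sources. Ages differ within the groups and also between them: no KO mouse was older than any WT mouse. Age and genotype can therefore not be fully separated, and with 6 arrays in all the precision is limited. All p-values measure the spread between these samples.

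The cytosolic ribosome makes the proteins encoded in the nucleus, while mitochondria have a ribosome of their own for the few proteins they encode. Its small subunit binds and decodes mRNA, and its large subunit joins amino acids and passes the chain out through a tunnel. Many of its protein genes have mRNAs that begin with a C followed by further pyrimidines (the terminal oligopyrimidine, or TOP, element), through which the mTOR pathway and Larp1 adjust their translation together. Skin renews its epidermis and hair continually, and mouse mutants of single ribosomal proteins can show changes in pigment or in patterning.

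The starts of 5 members are shown for the pyrimidine runs just named and for the member that stood apart. They are the genes with the lowest difference in each subunit (Rps21 and Rpl39), the paralog of the latter (Rpl39l), the paralog with the difference nearest to 0 (Rpl22l1) and Rpl3l. Each runs from 20 bases before the annotated start to the 10 bases that begin the transcript (RefSeq, GRCm38.p6). Capitals mark runs of at least 5 pyrimidines that begin with C, and the letters CAGCTG, a form of the E-box that basic helix-loop-helix factors such as MyoD bind.
Rps21 (chr2:180257359-180257388, + strand): gcacttaccgaggacccgCCCTCCTgccca
Rpl39 (chrX:37085213-37085242, - strand): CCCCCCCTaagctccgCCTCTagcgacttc
Rpl39l (chr16:10170208-10170237, + strand): cctagCTCCCaggCCTTTCCggatttccgg
Rpl22l1 (chr3:28805488-28805517, + strand): cgtgcgtgcggcgcaagcccgttCTCTTCC
Rpl3l (chr17:24727806-24727835, + strand): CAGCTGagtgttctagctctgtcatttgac

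The promoter table held 55 of the 75 canonical genes, taken at their most upstream start. Of these, 12 (21.8%) had such a pyrimidine run exactly at the start, against 2.48% of the 27025 genes in the table. A run lay within 20 bases of the start in 42 of 55 (76.4%), against 46.0% of all genes. None of the 6 paralogs had a run exactly at its start. CAGCTG reads the same on both strands. It stood in the 300 bases around the start in 2 of the 55 canonical genes, against 16.1% of all genes. Among the 6 paralogs it stood there in 1, Rpl3l. Annotated starts can lie some bases away from the true ones, and a match is a description of letters only.

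Sox4 was read first as a check of the labels. It gave between 503.7 and 764.2 units of processed signal in WT and between 59.5 and 78.7 in KO. With 3 arrays per group the log2 difference was -3.56 (SE 0.13), with a limma adjusted p of 0.00135. Levels below are log2 of the processed signal minus the array's 75th percentile, which ran from 379.8 units in WT replicate 1 to 605.5 in KO replicate 1. Between 52.1% and 66.4% of probes were well above background and no spot was saturated. Over all genes, 5 passed an adjusted p of 0.05 (0.0219%), 1 of them higher (0.00438%) and 4 lower in KO (0.0175%). Leaving out WT replicate 1 gave 250 calls and leaving out KO replicate 3 gave 154. Leaving out KO replicate 1 gave 3 calls, and leaving out any of the other three arrays gave 2.

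All 75 canonical ribosomal protein genes read lower in KO skin, by small amounts. The median log2 difference was -0.19 over the 45 large subunit genes and -0.20 over the 30 small subunit genes, each 1.14-fold or 1.15-fold lower, against -0.09 over all genes tested. Of all genes, 64.1% read lower. None of the 75 passed the test over all genes, with limma adjusted p from 0.311 to 0.859, so none can be called changed. At an unadjusted p of 0.05, 8 of the 75 (3 large, 5 small) were lower and none higher, where 5.5% of all genes were lower. Leaving out WT replicate 1 made it 12 and leaving out WT replicate 2 made it 3. It was 5 when KO replicate 2 was dropped, and 1 when either WT replicate 3 or KO replicate 1 was. With other processing the count was 1 (arrays scaled to the median), 3 (no filter on dim probes), 4 (slide as a block) and 0 (age as a covariate). With normexp correction and quantile normalization, 68 of the 75 read lower and the medians were -0.10 and -0.09.

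For 29 of the 75 canonical genes (16 large, 13 small) every KO array lay below every WT array, as it did for 11.8% of all genes. The log2 differences of single canonical genes kept within a narrow band, with an SD of 0.08 among the 75. Their standard errors ranged from 0.10 to 0.27, so most single differences were not much larger than their error. An exact permutation test of 3 against 3 arrays cannot give a two-sided p below 0.1 for any one gene. In bulk skin, fewer cells of a type and less RNA per cell cannot be told apart.

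**Figure D1:**
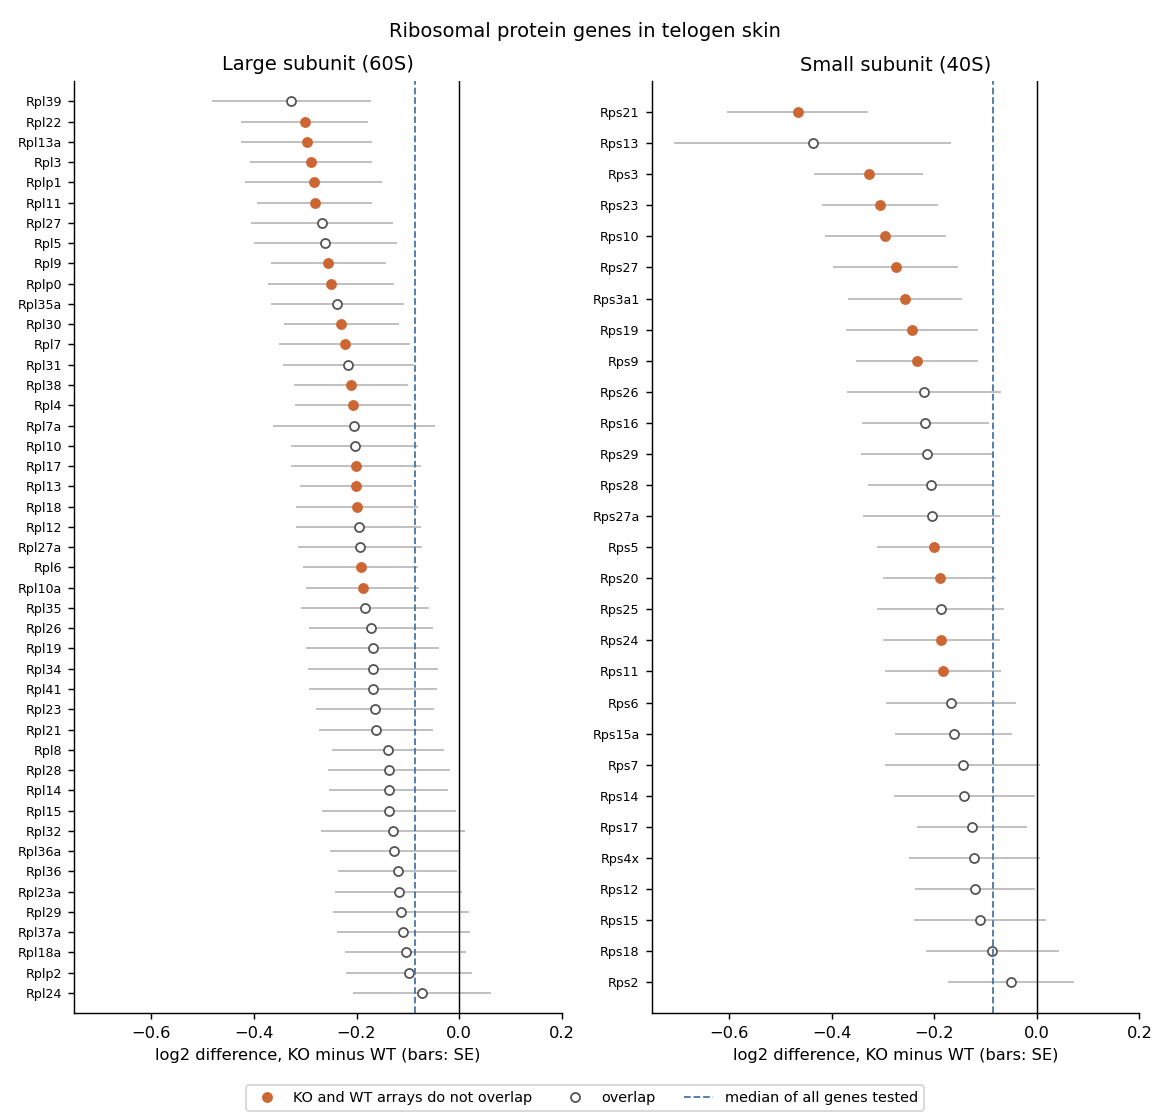
The log2 difference of 74 canonical ribosomal protein genes (KO minus WT, n = 3 per group; bars are standard errors of the limma fit), large subunit at left and small subunit at right. Filled points are the 28 genes shown whose KO and WT arrays do not overlap, and the dashed line is the median of all genes tested, -0.09; all 74 points lie left of 0, though 7 of the 75 canonical genes lie at or above 0 after quantile normalization.

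The arrays differed within each genotype as well as between them. The median large subunit level, set against each gene's WT mean, was -0.10, 0.09 and -0.00109 in WT replicates 1, 2 and 3 and -0.27, -0.14 and -0.16 in KO replicates 1, 2 and 3. The small subunit gave -0.09, 0.07 and 0.02 in WT and -0.29, -0.13 and -0.20 in KO. KO replicate 1 was lowest and WT replicate 2 highest, and the gap between the lowest WT and the highest KO array was small for both subunits. KO replicate 1 held the lowest value for 53 of the 75 genes, and WT replicate 2 the highest for 51.

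Brightness moved with this shift. When all genes were split by mean level into 10 classes of equal size, all 75 canonical genes fell in the brightest class. The median difference was -0.05 in class 4 and -0.15 in class 10, the brightest, and -0.12 in class 1, the dimmest. The 884 other genes at least as bright as the dimmest canonical member had a median of -0.17, 79.6% of them read lower, and 28.7% had no overlap between groups. Their medians by array were -0.09, 0.06 and 0.01 in WT and -0.24, -0.12 and -0.13 in KO. The 75 canonical genes gave -0.10, 0.09 and 0.01 in WT and -0.28, -0.14 and -0.17 in KO. They lay below the 884 genes on each KO array and on WT replicate 1. The SD between arrays of a genotype was 0.08 for each subunit. Both sets share much of that spread, so it does not measure the difference between them, which was not tested. The 884 genes are called equally bright here, though only a lower bound on their level was set. After quantile normalization the members stood at -0.09 and the equally bright genes at -0.10.

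**Figure D2:**
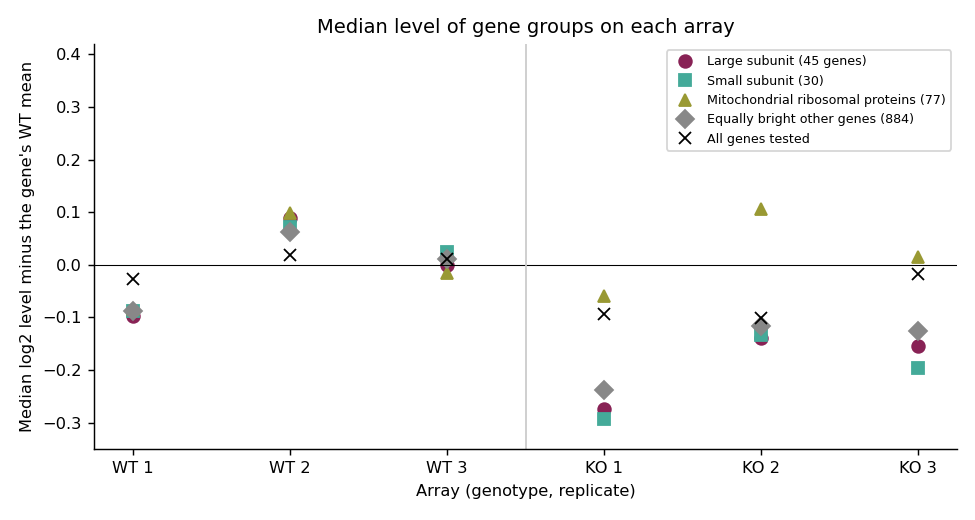
Median log2 level of each gene group on each array, relative to each gene's WT mean, for the 3 WT and 3 KO arrays. Both subunits lie lowest in KO replicate 1 (-0.27 and -0.29) and follow the 884 equally bright other genes, whereas the mitochondrial ribosomal proteins lie at -0.06, 0.11 and 0.01 in KO.

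**Figure D3:**
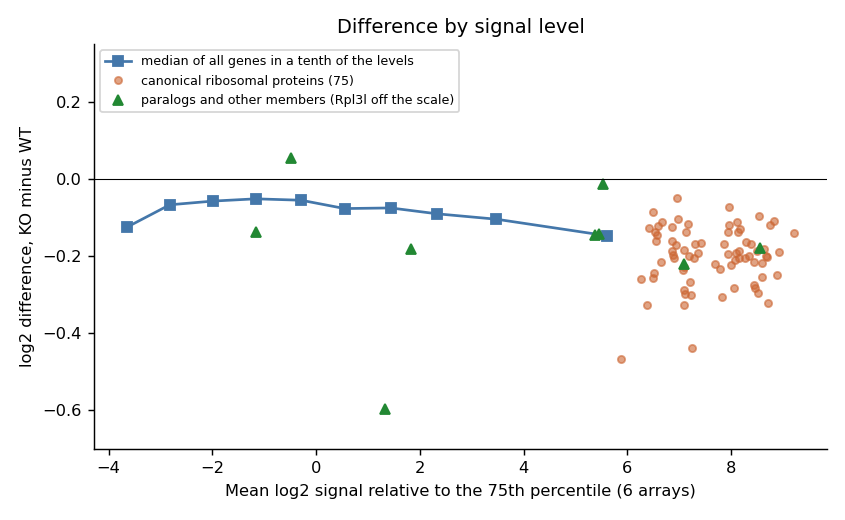
The log2 difference (KO minus WT) against the mean log2 signal over 6 arrays relative to the 75th percentile. Squares are medians of all genes in 10 classes of equal size by level, placed at the class's median level, circles are the 75 canonical members and triangles the other members; Rpl3l, at 1.93, lies off the scale. The squares go from -0.05 in class 4 to -0.15 in the brightest class, next to the members.

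Arrays shared slides, and the shift differed between slides. On slide 1, which held WT replicate 1 and KO replicate 3, the medians were -0.06 for the large and -0.08 for the small subunit, and 55 of the 75 genes read lower. On slide 2, with WT replicates 2 and 3 and KO replicate 1, they were -0.33 and -0.33 and all 75 read lower. KO replicate 2 was alone on slide 3. With slide as a block the medians were -0.21 and -0.23. Within slides no spread between replicates of KO exists, so these values carry no test.

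Among the small subunit genes, the 16 measured genes of the body and platform had a median of -0.20, and 8 of them did not overlap between genotypes. The 14 of the head also had a median of -0.20, and 5 did not overlap. These shares are 50% and 35.7%, against 11.8% of all genes and 28.7% of the 884 equally bright genes. Whether the shares differ was not tested. Rps21, a body protein needed to mature the small subunit's RNA, had the lowest difference of the canonical genes. It read 6.26, 6.02 and 6.03 in WT against 5.82, 5.59 and 5.50 in KO, a log2 difference of -0.47 (SE 0.14, adjusted p = 0.311). Every KO array lay below every WT array. The difference was -0.76 on slide 1 and -0.20 on slide 2, the reverse of the order seen for the subunit medians.

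Rps3 lines the path by which mRNA enters the ribosome and also takes part in DNA repair. It read 6.49, 6.57 and 6.57 in WT against 6.13, 6.28 and 6.24 in KO, a difference of -0.33 (SE 0.11, adjusted p = 0.344). The WT arrays lay close together and above all KO arrays. Rps23, whose product sits at the decoding centre, read 7.86, 8.10 and 7.99 in WT against 7.65, 7.70 and 7.69 in KO (-0.31, SE 0.11). Rps10, at the beak of the head, read 8.57, 8.83 and 8.61 against 8.35, 8.41 and 8.36 (-0.30, SE 0.12). Neither gene overlapped between genotypes. Rps13, singled out after its values were seen, had the second lowest value of the subunit, -0.44, but its SE of 0.27 was the widest. Its KO arrays read 6.98, 7.56 and 6.53 against 7.44, 7.28 and 7.67 in WT, and a second probe gave -0.17. Rps27, Rps3a1 and Rps9, proteins of the body and platform, had differences of -0.28, -0.26 and -0.23 and did not overlap either.

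Other small subunit genes of known interest showed smaller differences. Rps6, the protein phosphorylated by the S6 kinases downstream of mTOR, read 7.34, 7.65 and 7.53 in WT against 7.32, 7.43 and 7.26 in KO (-0.17, SE 0.13). WT replicate 1 lay among the KO arrays. Rps27a, which is made as a fusion with ubiquitin, had -0.21 (SE 0.13) and overlapped. Rps2, a protein of the mRNA entry channel, had the difference nearest to 0 of all canonical genes, -0.05 (SE 0.12), with 6.83, 7.12 and 6.97 in WT and 6.95, 6.97 and 6.86 in KO. A second, slightly dimmer Rps2 probe gave -0.69, with KO replicate 1 lowest at 5.67.

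Among the large subunit genes, the 4 of the stalk and its base, which recruits translation factors, had a median of -0.22. Rplp1 read 8.21, 8.17 and 8.19 in WT against 7.85, 8.13 and 7.75 in KO, which is -0.28 (SE 0.13). Rplp0, the stalk's anchor, read 8.86, 9.18 and 9.02 against 8.75, 8.79 and 8.77 (-0.25, SE 0.12). In both genes the KO arrays lay below the WT arrays, for Rplp1 by a small margin in KO replicate 2. Rplp2, the partner of Rplp1, had -0.10 (SE 0.12) and Rpl12, at the stalk base, -0.20 (SE 0.12), and both overlapped.

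Rpl5 and Rpl11 carry the 5S RNA into the large subunit, and when assembly fails they bind Mdm2, the inhibitor of p53. Rpl11 read 8.56, 8.68 and 8.59 in WT against 8.28, 8.44 and 8.27 in KO, a difference of -0.28 (SE 0.11, adjusted p = 0.415). Rpl5 read 6.25, 6.55 and 6.40 against 5.99, 6.12 and 6.31 (-0.26, SE 0.14). Rpl11 did not overlap between genotypes, whereas KO replicate 3 of Rpl5 lay above WT replicate 1.

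The 9 genes of the exit tunnel and its rim had a median of -0.20. Rpl39, a small protein inside the tunnel, had the lowest difference of the large subunit. It read 6.97, 7.44 and 7.36 in WT against 6.85, 6.98 and 6.96 in KO (-0.33, SE 0.15, adjusted p = 0.461), with WT replicate 1 among the KO arrays. Rpl22, an RNA-binding protein of the rim that mice need for the development of alpha-beta T cells, read 7.35, 7.53 and 7.28 in WT against 7.04, 7.01 and 7.21 in KO (-0.30, SE 0.12) without overlap.

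The other 30 large subunit genes had a median of -0.18, and 10 of them (33.3%) did not overlap between genotypes. Of all genes 11.8% lay lower without overlap, and of the 884 equally bright genes 28.7%. Rpl3, which reaches to the peptidyl transferase centre, read 7.10, 7.31 and 7.33 in WT against 6.86, 7.004 and 7.003 in KO (-0.29, SE 0.12, adjusted p = 0.423). Rpl13a had -0.30 (SE 0.13), Rpl9 -0.25 (SE 0.11) and Rpl30 -0.23 (SE 0.11), each without overlap. Rpl10, which joins late at the subunit interface, had -0.20 (SE 0.12) and overlapped.

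A list of 5 members with skin or patterning mutants in mice, which may not be complete, held Rps19, Rps20, Rpl24, Rpl27a and Rpl38. These 5 had a median of -0.19. Mutants of Rps19 and Rps20 have dark skin. Rps19 read 6.45, 6.80 and 6.64 in WT against 6.33, 6.42 and 6.41 in KO (-0.24, SE 0.13), and Rps20 read 9.04, 9.07 and 8.93 against 8.76, 8.79 and 8.92 (-0.19, SE 0.11). Neither overlapped, though KO replicate 3 of Rps20 lay next to WT replicate 3. Rpl38, whose loss in the tail-short mouse alters the skeleton, had -0.21 (SE 0.11) without overlap. A second, slightly dimmer Rpl38 probe gave -0.09 with overlap. Rpl27a, altered in the sooty foot ataxia mouse, had -0.19 (SE 0.12) with overlap. Rpl24, altered in the belly spot and tail mouse, had the large subunit difference nearest to 0, -0.07 (SE 0.13), with 7.81, 8.13 and 8.08 in WT and 7.88, 8.05 and 7.86 in KO.

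Rpl3l was the member that stood apart. It is the striated muscle counterpart of Rpl3, and it was higher in every KO array: it read 2.63, 0.89 and 0.74 in WT against 3.12, 3.79 and 3.15 in KO. The log2 difference was 1.93 (SE 0.52), or 3.82-fold, but it did not pass over all genes (adjusted p = 0.288). At an unadjusted p of 0.05, 6.26% of all genes were higher. Groups did not overlap upward for 7.56% of all genes. Over the fits with 1 array left out the difference ran from 1.59 to 2.54, and without WT replicate 1 it passed the threshold (limma adjusted p = 0.0432). With age as a covariate the difference was 3.21 (limma adjusted p = 0.0839). Over all settings tested its adjusted p ran from 0.0432 to 0.999968, and no other setting passed.

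Skeletal muscle markers moved with Rpl3l from array to array. All 30 markers of the list were measured and higher in KO, with a median difference of 1.79, though none passed over all genes. No marker was below background throughout a group. Their median level against the WT mean was 1.19, -0.42 and -0.67 in WT and 1.71, 2.17 and 1.54 in KO. Their summed signal, in units of the array's 75th percentile, ran from 972 to 3500 in WT and from 4101 to 5551 in KO. WT replicate 1 was the high WT array both for the muscle list and for Rpl3l. For Rpl3l the slide 1 value was 0.51, the slide 2 value 2.30 and the value blocked by slide 1.54. Once the muscle level was a covariate the Rpl3l difference was 0.07 (limma adjusted p = 0.999968). That level was taken from these same arrays and did not overlap between genotypes. The fit therefore cannot separate muscle level from genotype, and no gene at all passed in it. Rpl3l also set itself apart from Rpl3 on each KO array, where their log2 ratio was 2.08, 2.62 and 1.97 above its WT mean, against 1.36, -0.59 and -0.77 in WT.

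The muscle covariate moved the canonical genes too, though the same limit holds for them. With this covariate 60 of the 75 read lower. The medians were -0.07 for each subunit, -0.04 for the equally bright genes and -0.00484 for all genes. In that fit 1 of the 75 had an unadjusted p under 0.05.

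**Figure D4:**
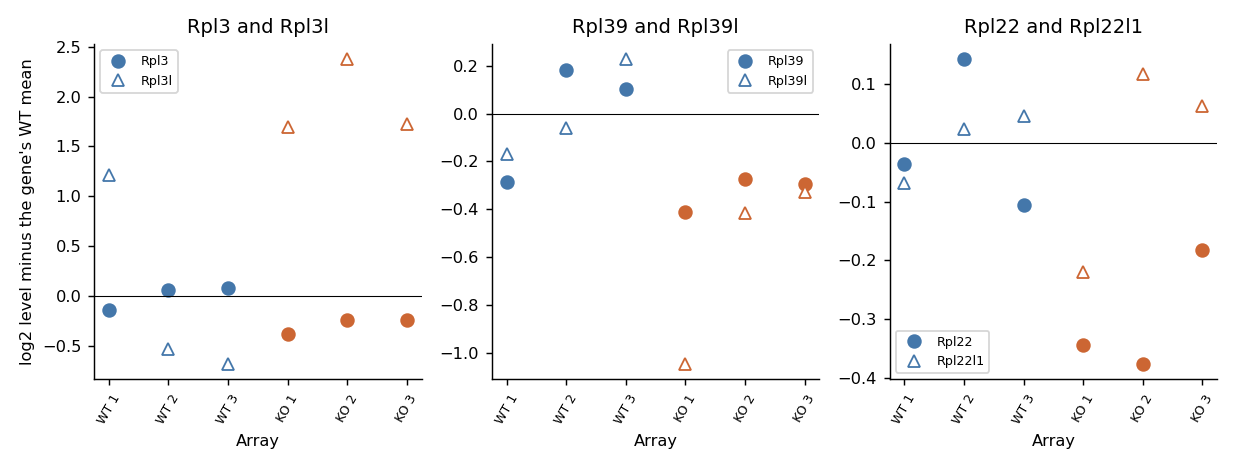
Log2 level relative to the gene's WT mean on each array for 3 canonical genes (filled circles) and their paralogs (open triangles), WT in blue and KO in orange. Rpl3l is high in all KO arrays and in WT replicate 1 while Rpl3 is lower in KO; Rpl39l is lowest in KO replicate 1; Rpl22l1 overlaps between genotypes.

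The other paralogs did not share the pattern of Rpl3l. Rpl39l, a copy of Rpl39 best known from testis, read 1.45, 1.56 and 1.85 in WT against 0.57, 1.21 and 1.30 in KO, a difference of -0.60 (SE 0.22, adjusted p = 0.393). No KO array reached the WT range, and KO replicate 1 was the lowest. The difference was -0.16 on slide 1 and -1.13 on slide 2.

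Rpl22l1, the paralog of Rpl22, read 5.46, 5.56 and 5.58 in WT against 5.31, 5.65 and 5.59 in KO (-0.01, SE 0.13), a full overlap. Rps27l, a target of p53, had -0.15 (SE 0.15), Rpl36al -0.14 (SE 0.12) and Rpl7l1, a relative of Rpl7, -0.14 (SE 0.14), all with overlap. Rpl10l, a testis copy of Rpl10, was the member not measured. One of its probes was well above background on no array and the other on 1 WT array only.

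The 4 genes that carry the symbol only are a binding partner of Rps19 and copies of Rps23, Rpl32 and Rpl37. Rps19bp1 had -0.18 (SE 0.13) with overlap and Rps23rg1 0.06 (SE 0.16). Rpl32l and Rpl37rt had -0.22 and -0.18. The latter pair may not be told apart from their parent genes by a probe. Near-identical copies and processed pseudogenes are common in this family, so any member's signal may hold some of theirs.

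Several probes read the same gene for 50 of the 85 measured members, and they mostly gave like values. Of the 156 kept probes of canonical genes, 154 had a negative difference, with a median of -0.19. The differences between a gene's probes spanned at most 0.1 for 30 of the 50. Rpl6 and Rpl21 were the members whose probes differed in sign. For Rpl21 the probes ran from -0.16 to 0.00305, with the brightest at the low end. For Rpl6, 3 bright probes gave -0.11, -0.19 and -0.20 while a dim probe gave 2.29. That probe read -3.77, -4.60 and -3.88 in WT against -0.63, -0.69 and -4.07 in KO, so it was high in KO replicates 1 and 2 only.

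Markers of the hair shaft and inner root sheath were also high in KO replicates 1 and 2, while the other four arrays lay in another order than for the dim Rpl6 probe. The 18 measured of 26 such markers had a median difference of 2.61, and none passed over all genes. Their median level was -0.12, 0.24 and -0.05 in WT and 4.05, 3.65 and -0.11 in KO. Their summed signal ran from 15.6 to 22.3 in WT and from 16.2 to 356.7 in KO. Their part in the probe's reading was not tested. All samples were described as telogen skin, and whether these arrays differed in hair cycle stage was not tested. In a fit that dropped KO replicates 1 and 2, added once the data had been seen, 72 of the 75 canonical genes read lower, with medians of -0.15 and -0.20. Only KO replicate 3 then stands for the knockout, and its spread is assumed to be that of the WT arrays, so no call is read from that fit.

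Ribosomal proteins whose symbols the rule does not reach lay in the same range. Rack1, a scaffold on the head of the small subunit, had -0.28 (SE 0.11, adjusted p = 0.389) and Rpsa -0.18 (SE 0.11), both without overlap. Fau, made as a fusion with a ubiquitin-like part, had -0.20 (SE 0.14) with overlap.

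Other genes of translation were read from lists, and none of their genes passed the test over all genes. Of 20 measured genes with known TOP mRNAs outside the rule, 19 read lower with a median of -0.14. Elongation factor Eef1a1, which brings aminoacyl-tRNA to the ribosome, had the largest difference among them, -0.33 (SE 0.11, adjusted p = 0.346). Of 6 elongation factors 5 read lower (median -0.11). Of 28 initiation factors 23 read lower (median -0.10), with Eif4a1, the helicase, at -0.19 and Eif3d at -0.21. These medians lay between that of all genes, -0.09, and those of the ribosomal proteins, and the difference between lists was not tested. The lists share genes: Eef1a1 stands in both the TOP and the elongation list, and the TOP list holds Rack1.

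The genes that build ribosomes gave smaller differences. Of 62 measured biogenesis factors 47 read lower, with a median of -0.06, and Rrp12, an export factor, had 0.43 (SE 0.20, adjusted p = 0.455). Of 20 genes of RNA polymerase I and its factors 15 read lower (median -0.09). Ubtf, which binds ribosomal DNA, had -0.35 (SE 0.11, adjusted p = 0.314), and Taf1d -0.34 (SE 0.12), both without overlap. Tcof1, the treacle protein, had 0.27 (SE 0.13). Of 16 genes of Myc and mTOR signalling 9 read lower (median -0.03), and Eif4ebp1, a brake on initiation, had 0.30 (SE 0.14). For Tcof1 and Eif4ebp1 every KO array lay above every WT array, in both by a very small margin in KO replicate 3. Groups did not overlap downward for 11.8% of all genes and upward for 7.56%. None of the genes of these lists passed.

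The mitochondrial ribosome, the most similar machine, did not read lower. Of its 77 measured protein genes 35 were lower and 42 higher in KO, with a median of 0.03. None had all KO arrays below all WT arrays, where 11.8% of all genes did. All KO arrays lay above for 8 of the 77, where 7.56% of all genes did so. Mrpl42 had 0.45 (SE 0.13, adjusted p = 0.313) and Mrps36 0.33 (SE 0.12). The lists' medians by array were -0.08, 0.10 and -0.02 in WT and -0.06, 0.11 and 0.01 in KO. On slide 1 the median was 0.11 and on slide 2 it was -0.10, so its sign differed between slides.

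Markers of other cells in the skin were read in the same way, and 1 of their genes passed over all genes. T and natural killer cell genes, 19 measured of 24, all read lower with a median of -0.91; their summed signal ran from 22.8 to 25.8 in WT and from 12.0045 to 15.3 in KO. The gene that passed was Cd3g, part of the T cell receptor complex (-1.32, SE 0.11, limma adjusted p = 0.0464). Over the 9 lists other than muscle, hair and T and natural killer cells, medians ran from -0.66 for 4 B cell genes to 0.55 for 8 red blood cell genes. Basal and suprabasal epidermis had -0.20 and -0.24 and fibroblasts -0.20. The keratinocyte markers named for skin were present: all 10 basal and 12 of 13 suprabasal genes were measured. The part of these cells in the ribosomal protein values was not tested.

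**Figure D5:**
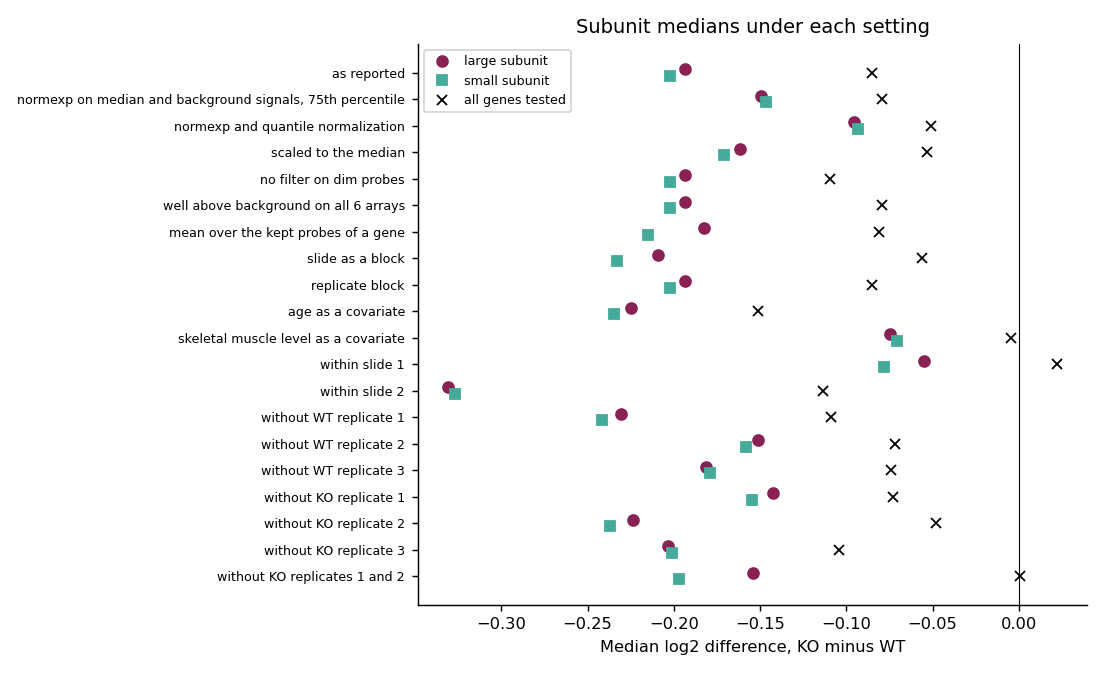
Median log2 difference (KO minus WT) of the large subunit (circles), the small subunit (squares) and all genes tested (crosses) under each processing setting or set of arrays. Both subunits stay below 0 throughout, from -0.33 within slide 2 to -0.06 for the large subunit within slide 1, and lie nearer to all genes after quantile normalization, at -0.10 and -0.09 against -0.05.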

How the data were processed

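Scanner files of 6 arrays hold spot intensity values as the authors deposited them, written by Agilent Feature Extraction 11.5.1.1 per the file headers, with no scaling between arrays applied by the scanner software. Other deposited columns are flags of 0 or 1, per the file headers. The submitters' processing notes name limma. The deposited value table was not used.

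Log2 processed signals were averaged over the unflagged spots of a probe, and each array's 75th percentile over probes was subtracted (31 of 55681 probes left out). Accessions were matched to the RefSeq table of GRCm38.p6, which named 27491 probes. A probe entered if either group had it well above background on each of its arrays (30081 probes), and a gene is its brightest such probe (14914 with a symbol). The comparison of KO with WT used limma 3.58.1 under R 4.3.3 (lmFit and eBayes without covariates), with Benjamini-Hochberg adjustment over 22822 rows and a two-sided threshold of 0.05. On simulated data of this size (22822 genes) 96.2% of simulated differences of 3 log2 units were called, and 50.4% of those of 1. Smaller differences, such as those of the canonical genes, were not simulated.

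Members and lists were chosen with earlier results of these data known. Named members are all paralogs, Rps19bp1, fixed genes of known role, the 8 with the smallest p and the extremes in each subunit, and those whose probes differ in sign; of other lists, the 2 to 4 with the smallest p. All 4 genes that carry the symbol only are also given. Some genes that enter the counts are not reported by name here. Normexp alternatives used the median spot signal (offset 50), as the files give no mean signal. Other alternatives were median scaling, dim-probe filters, probe averaging, slide or replicate block, age or muscle covariate, and leaving out arrays.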

Additional observations from a re-analysis of the deposited data

How the results depend on the processing

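The subunit medians were negative under every setting run. They moved by more than the SD between arrays to -0.0957 (large) and -0.0934 (small) with normexp and quantile normalization, to -0.0745 and -0.0709 with the muscle covariate, to -0.0551 and -0.0783 within slide 1 and to -0.331 and -0.327 within slide 2. With 1 array left out they ran from -0.231 to -0.143 and from -0.241 to -0.155. The count of calls over all genes was 8 with either normexp setting, 15 with median scaling, 2 with no filter on dim probes, 9 with probes well above background on all arrays, 1 with slide as a block, 141 with age as a covariate, 0 with the muscle covariate in limma (677 at unadjusted p under 0.05), 130 without KO replicates 1 and 2 (added after seeing the data; the lone KO array is assumed to vary like the WT arrays), and from 2 to 250 with 1 array left out. The replicate numbers were not taken as pairs in the main fit: deviations of same-numbered arrays correlated at -0.13, -0.04 and 0.08. These values show no clear shared effect, but they cannot say whether samples were collected in pairs. With the replicate block limma called 0 genes (2217 at unadjusted p under 0.05, 3 of them canonical members).

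Of 722 values of the 38 named members, 649 stayed the same, 29 turned sign and 1 came to pass the threshold. Staying the same meant keeping direction and side of the threshold. Values within a slide have no adjusted p, so they had to stay within the gene's SD between arrays of a genotype. The other 43 were such values, which kept their sign but moved by more than that SD. Rpl22l1 gave 0.0321 with normexp, 0.0187 with median scaling, 0.0459 with the muscle covariate, 0.132 within slide 1 and 0.0629 without KO replicates 1 and 2, and with 1 array left out it ran from -0.0783 to 0.0902. Rpl24 gave 0.0131 with normexp, 0.0728 with quantile normalization, 0.143 with the muscle covariate and 0.0580 within slide 1. With quantile normalization Rpl10 gave 0.0418, Rpl38 0.0251 and Rplp2 0.0140. With the muscle covariate Rpl39 gave 0.0430, Rpl7l1 0.195, Rplp2 0.0201, Rps2 0.106 and Rps27l 0.181. Within slide 1 Rpl21 gave 0.0195, Rpl36al 0.0266, Rpl5 0.0566, Rpl7l1 0.216, Rps2 0.0256, Rps27a 0.0444 and Rps27l 0.131. With 1 array left out Rps2 ran from -0.123 to 0.0242. Rpl7l1 gave 0.0305 without KO replicates 1 and 2. Rpl6 gave 0.448 with the mean over its probes, which includes the dim one. The cause of the other changes of sign was not tested.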
